A study of Mus musculus with 8 samples.

Results

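Triple-marked segments are stretches of the mouse genome that lay inside an H3K9me1, an H3K9me2 and an H3K9me3 region at the same time. They were selected on the deposited region lists of wild-type mouse embryonic fibroblasts (MEFs) and on nothing else. On chromosomes 5, 8, 9, 10, 11, 14, 15, 17 and 19 the 3 lists were split into runs of bases with the same set of marks, and runs of at least 1500 bp under all 3 marks were kept. This gave 13119 triple-marked segments out of 90626 segments of that width with 1 or more marks. The series held 8 samples in 4 groups, namely ChIP-seq for each of the 3 marks and input chromatin, with 2 biological replicates in each group. All came from wild-type MEFs, which in the study's methods are the uninduced E1c line, a sorted clone with a tamoxifen-inducible Cre and floxed Eset1 exons, so every group carried these alleles and none of these samples had Eset1 deleted. The antibodies were ab8896 for H3K9me1, ab1220 for H3K9me2 and ab8898 for H3K9me3. Each mark had 1 list of positions with no score, so there are no values per replicate, the depth behind a region is unknown, and no SD over replicates can be given. The lists hold no RNA values, so the cell type could not be checked.

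Lysine 9 of histone H3 can carry 1, 2 or 3 methyl groups, and these states are mutually exclusive on a single histone tail. H3K9me3 is the classical mark of constitutive heterochromatin and silenced retrotransposons and is bound by HP1 proteins, H3K9me2 is typical of silent euchromatic domains and is placed by G9a and Glp, and H3K9me1 is both an intermediate of these reactions and a mark found in gene bodies. Whether the states in a triple-marked segment lay on neighbouring nucleosomes, on different alleles or in different cells cannot be told apart in region lists.

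Of the sequence under the segments, 30.1% was soft-masked, which marks mostly interspersed and simple repeats, and 43.5% was G or C. To show what this sequence looks like, the middle 300 bases of each of the 3 widest segments are given in GRCm38, plus strand, in lower case with every CpG in capitals. They lay at chr17:5638351-5638650 in Zdhhc14, at chr10:58672726-58673025 in the segment over Edar, and at chr10:41111101-41111400 in the segment over Gpr6, and held 3, 4 and 5 CpGs.
Middle of the Zdhhc14 segment: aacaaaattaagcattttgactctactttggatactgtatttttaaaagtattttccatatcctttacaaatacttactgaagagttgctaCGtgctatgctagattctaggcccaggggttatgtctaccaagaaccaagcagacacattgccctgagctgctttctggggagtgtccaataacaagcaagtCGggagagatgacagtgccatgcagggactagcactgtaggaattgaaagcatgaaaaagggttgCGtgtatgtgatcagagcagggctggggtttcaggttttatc
Middle of the Edar segment: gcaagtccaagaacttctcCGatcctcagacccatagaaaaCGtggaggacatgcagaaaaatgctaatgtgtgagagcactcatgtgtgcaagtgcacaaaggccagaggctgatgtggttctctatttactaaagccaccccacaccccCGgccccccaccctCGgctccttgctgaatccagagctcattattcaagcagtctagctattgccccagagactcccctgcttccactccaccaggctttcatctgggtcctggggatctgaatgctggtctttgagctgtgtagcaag
Middle of the Gpr6 segment: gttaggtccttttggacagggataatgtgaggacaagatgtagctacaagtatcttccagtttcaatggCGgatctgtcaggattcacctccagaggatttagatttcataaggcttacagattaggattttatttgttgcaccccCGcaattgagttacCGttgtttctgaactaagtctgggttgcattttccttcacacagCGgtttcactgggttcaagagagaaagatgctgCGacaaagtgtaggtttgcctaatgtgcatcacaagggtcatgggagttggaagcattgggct
The observed number of CpGs over that expected from the C and G content was 0.225, 0.196 and 0.352 in these windows.

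Promoters inside and outside the segments are shown next, from 250 bases before to 50 bases after the RefSeq start (GRCm38.p6). Cdh23, a cadherin of the inner ear hair bundle, Hydin, a protein of the central pair of motile cilia, and Ano4, a member of the anoctamin family, were the 3 protein-coding genes with the most triple-marked sequence among those that start in a segment. Cacna1i, the T-type calcium channel CaV3.3, is given beside them because the study examined it, and its start lay outside. The windows were chr10:60696441-60696740 (minus strand) for Cdh23, chr8:110266727-110267026 (plus) for Hydin, chr10:89257741-89258040 (minus) for Ano4 and chr15:80286988-80287287 (plus) for Cacna1i. Capitals again mark CpG.
Cdh23 promoter: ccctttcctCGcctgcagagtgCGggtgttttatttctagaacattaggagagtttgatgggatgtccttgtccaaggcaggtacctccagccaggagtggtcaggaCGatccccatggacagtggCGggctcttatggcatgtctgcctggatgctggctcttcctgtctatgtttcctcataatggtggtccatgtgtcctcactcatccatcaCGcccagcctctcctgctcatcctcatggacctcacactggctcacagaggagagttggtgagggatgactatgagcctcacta
Hydin promoter: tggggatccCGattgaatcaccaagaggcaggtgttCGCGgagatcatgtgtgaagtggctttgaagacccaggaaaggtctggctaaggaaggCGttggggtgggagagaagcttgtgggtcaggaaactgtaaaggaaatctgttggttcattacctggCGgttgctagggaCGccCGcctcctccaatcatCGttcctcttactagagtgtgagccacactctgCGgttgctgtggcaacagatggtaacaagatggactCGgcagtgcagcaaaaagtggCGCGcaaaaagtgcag
Ano4 promoter: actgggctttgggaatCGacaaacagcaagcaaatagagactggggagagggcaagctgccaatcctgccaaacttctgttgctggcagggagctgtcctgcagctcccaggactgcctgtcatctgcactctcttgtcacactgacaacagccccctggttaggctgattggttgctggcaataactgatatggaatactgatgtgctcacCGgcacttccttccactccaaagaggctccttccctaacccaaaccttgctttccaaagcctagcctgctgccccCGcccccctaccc
Cacna1i promoter: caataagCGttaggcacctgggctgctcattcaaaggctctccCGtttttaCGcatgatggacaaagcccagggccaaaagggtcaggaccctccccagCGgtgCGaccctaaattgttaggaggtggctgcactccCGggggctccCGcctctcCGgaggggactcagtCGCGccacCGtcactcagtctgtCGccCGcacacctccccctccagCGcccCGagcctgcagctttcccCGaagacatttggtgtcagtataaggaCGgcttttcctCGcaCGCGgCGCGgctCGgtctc
The triple-marked promoters held 5 (Cdh23), 12 (Hydin) and 3 (Ano4) CpGs, and the Cacna1i promoter, under H3K9me1 only, held 23. The Ano4 window belongs to the RefSeq start, which lies 86972 bp from the GENCODE 5′ end, and both starts were inside a segment. Around the GENCODE start, within 500 bases either side, the GC share was 66.1% and the CpG observed over expected ratio 0.659, so this start of Ano4 was CpG-rich by the definition used for the promoters of all genes.

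The segments covered 93.9 Mb, which was 9.28% of the bases of the 9 chromosomes that are not N and 19.3% of the 486 Mb under any mark. They held 32.2% of the H3K9me1 length, 39.2% of the H3K9me2 length and 35.4% of the H3K9me3 length on these chromosomes. Their distribution was uneven. Chromosome 10 alone held 5070 segments and 43.7 Mb, chromosome 15 held 20.1 Mb and chromosome 8 held 16.1 Mb, so that these 3 chromosomes had 85.1% of the triple-marked length on 34.9% of the sequence. Segments made up 34.4% of chromosome 10, 19.99% of chromosome 15, 12.9% of chromosome 8, 6.33% of chromosome 17 and 4.10% of chromosome 19. Chromosomes 5, 9, 11 and 14 had between 0.637% and 1.53%. The single marks ran in the same order at the top, since H3K9me1, H3K9me2 and H3K9me3 covered 56.5%, 59.0% and 58.8% of chromosome 10 but 16.9%, 6.24% and 8.88% of chromosome 11. The share of each mark that lay in triple-marked sequence also differed. On chromosome 10 it was 60.9% of H3K9me1, 58.4% of H3K9me2 and 58.5% of H3K9me3, and on chromosome 11 it was 3.77%, 10.2% and 7.17%. These shares follow from the lists that chose the segments and are given without a test.

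**Figure D1:**
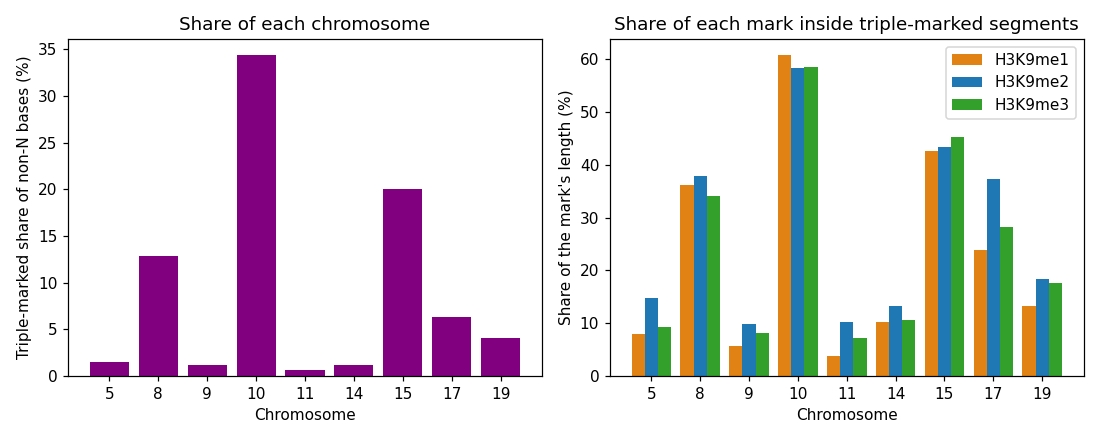
Triple-marked share of the non-N bases of each chromosome (left) and share of the length of each mark that lay inside triple-marked segments (right), both in percent, for the 9 chromosomes. Chromosomes 10, 15 and 8 stand above the others in both panels, with 34.4%, 19.99% and 12.9% of their bases in segments.

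Most segments were narrow and a few were very wide. The median width was 3.75 kb, 90% were at most 15 kb wide, and the widest spanned 202.5 kb. The 859 segments of at least 20.25 kb were 6.55% of all segments and held 32.5% of the length, and 130 of them were at least 50.25 kb wide. The lists lie on a grid of 750 bp, so the minimum width is 2 bins. Just inside the minimum were 2197 segments of exactly 1500 bp, and just outside it were 1970 runs of 750 bp, which added up to 1.48 Mb. Median widths were 4.50 kb on chromosomes 10, 15 and 17, 3.75 kb on chromosome 8 and 3 kb on the remaining chromosomes.

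A triple-marked segment rarely stood alone. Of the 26238 segment edges, 80.4% were places where a single mark ended and the other two went on, 15.1% were places where a pair of marks ended together, and 4.44% opened directly onto unmarked sequence. H3K9me1 was most often the mark that ended by itself (43.2% of edges), followed by H3K9me3 (25.8%) and H3K9me2 (11.4%). The most frequent arrangement, in 3784 segments (28.8%), had sequence with H3K9me2 and H3K9me3 only on both sides. Marked sequence flanked 91.4% of segments on both sides, and 32 segments had no mark on either side. The regions that held a segment describe the same ends in another way. Their median width was 9.75 kb for H3K9me1, 15 kb for H3K9me3 and 18.8 kb for H3K9me2. A segment was identical to a whole H3K9me1 region in 5381 cases (41.0%), to a whole H3K9me3 region in 3234 (24.7%) and to a whole H3K9me2 region in 1459 (11.1%). In 50.6% of segments the H3K9me1 region was the narrowest of the 3, in 29.6% the H3K9me3 region, in 13.0% the H3K9me2 region, and 6.81% were ties. The edge counts and these widths all follow from the lists that chose the segments and are given without a test.

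**Figure D2:**
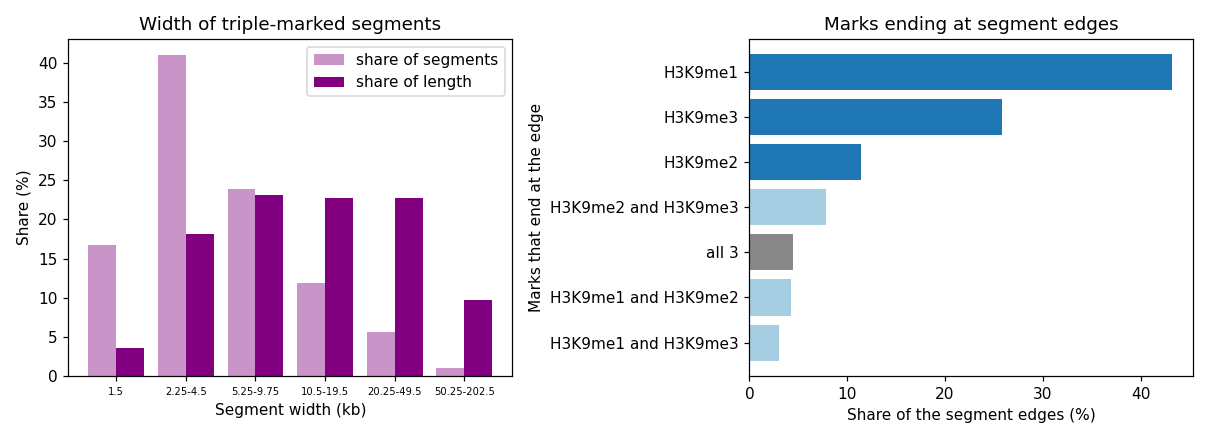
Left, share of the 13119 segments and of their length (percent) by segment width in kb. Right, share of the segment edges (percent) at which the named marks ended, with dark blue for 1 mark, light blue for a pair and grey for all 3. The segments of 1.5 to 4.5 kb were the most numerous, and H3K9me1 ending alone was the most frequent edge (43.2%).

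The widest segments lay in or over genes of varied function, and several were largely intergenic. The first, chr17:5537251-5739750, was 202.5 kb wide and lay 99.6% in introns of Zdhhc14, a palmitoyltransferase. The H3K9me3 region there had the same ends as the segment, and the H3K9me1 and H3K9me2 regions were 233 and 203 kb wide. The second, chr10:58584751-58761000 (176 kb), held the whole of Edar, the ectodysplasin receptor of hair, tooth and sweat gland development, together with the gene model Gm17542. The third, chr10:41024251-41198250 (174 kb), held Gpr6, an orphan G protein-coupled receptor, and the 3′ part of Fig4, a phosphoinositide phosphatase. A 142 kb segment at chr15:82419001-82560750 lay over the Cyp2d gene cluster, with Cyp2d9, Cyp2d12 and 16 starts of all annotated genes, and a 138 kb segment at chr10:20149501-20287500 covered 99.4% of Map7, which encodes a microtubule-associated protein. Another 138 kb segment, chr10:127746751-127884750, held 7 whole protein-coding genes of 9 that it met, among them the retinol dehydrogenase family members Rdh1, Rdh9, Rdh16, Rdh16f1 and Rdh19. The seventh, chr10:95019001-95143500, met no protein-coding gene. The last 3 of the 10 widest lay in introns of Cdh23 (108 kb), over the pheromone receptor genes Vmn2r80 and Vmn2r81 (102 kb) and in Col22a1 (102 kb), a collagen of tissue junctions. Intergenic sequence made up 49.3% of the Edar segment, 55.0% of the Gpr6 segment and 68.0% of the Cyp2d segment. It made up 80.5% of the seventh, 51.6% of the Vmn2r80 segment and at most 23.1% of the others. Soft-masked sequence made up from 15.4% (Col22a1) to 59.0% (Vmn2r80 and Vmn2r81) of these 10 segments.

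Segments came in groups. The median gap to the next segment was 6 kb, and 34.1% of the 13110 gaps were 3 kb or less. When segments up to 5 kb apart were joined, 7314 groups were formed, of which 177 spanned at least 100 kb and held 28.3% of the triple-marked length. The widest group, chr10:18548251-18930000, contained 16 segments that filled 95.1% of its 382 kb. It held Perp, a p53 target of epithelial junctions, and Gm4922 whole, and covered 96.8% of Arfgef3. Next came chr10:83777251-84156000 and chr10:126332251-126701250, both without a protein-coding gene, then chr10:3630001-3966750 in Plekhg1. Of 1039 windows of 1 Mb, 375 held no triple-marked sequence and 129 held at least 30%. Of these 129, 68 lay on chromosome 10, 30 on chromosome 15, 21 on chromosome 8, 9 on chromosome 17 and 1 on another chromosome. The 5 fullest windows were all on chromosome 10 and were 70.1% to 74.6% triple-marked. The fullest, from 92 to 93 Mb, holds Cfap54 and Nedd1, which differed. The gene body of Cfap54, which encodes a cilia-associated protein, was 88.5% triple-marked, and that of Nedd1, which encodes a centrosomal protein, was 0% triple-marked and 96.2% under H3K9me1. The window from 129 to 130 Mb, at 73.5%, is an olfactory receptor gene cluster with 52 protein-coding genes.

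The 5′ end of a gene fell inside a triple-marked segment in 586 of 9632 protein-coding genes (6.08%) and in 1828 of 22392 annotated genes of any type (8.16%). Processed pseudogenes (500 of 3600, 13.9%, 95% Wilson interval 12.8 to 15.1), unprocessed pseudogenes (94 of 641, 14.7%, 12.1 to 17.6) and long intergenic RNA genes (249 of 2445, 10.2%, 9.05 to 11.4) had larger shares of starts inside than protein-coding genes (95% interval 5.62 to 6.58). Such intervals cover counting error only, since neighbouring genes share segments. By chromosome, the protein-coding share was 24.8% on chromosome 10, 18.1% on chromosome 15 and 8.75% on chromosome 8, and lay between 0.244% on chromosome 11 and 2.84% on chromosome 17 elsewhere. Each value was lower than the share of that chromosome's bases in segments, except on chromosomes 5 and 9 (1.83% against 1.53% of bases and 1.16% against 1.12%) and chromosome 14 (1.55% against 1.15%).

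Triple-marked sequence was less frequent at gene starts than around them. On chromosome 10, 24.8% of the 1021 protein-coding genes were triple-marked at the start, 43.5% at 5 kb upstream and 33.6% at 5 kb downstream. Unmarked sequence ran the other way, at 56.4% of starts, 13.7% at 5 kb upstream and 16.9% at 5 kb downstream. Over all 9 chromosomes the triple-marked share was 6.08% at the start, 9.44% at 5 kb upstream and 8.04% at 5 kb downstream. The dip was not particular to triple-marked sequence. Between 5 kb upstream and the start, H3K9me1 only went from 28.1% to 9.89% and H3K9me1 with H3K9me2 from 4.95% to 2.70%. H3K9me2 with H3K9me3 went from 2.88% to 2.82%. Within genes of at least 20 kb on chromosome 10, the mean triple-marked share was 24.2% in the first of 10 equal parts of the gene body and 37.2% in the last (n = 468 genes). Over the 9 chromosomes these values were 6.63% and 8.51% (n = 4344 genes).

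**Figure D3:**
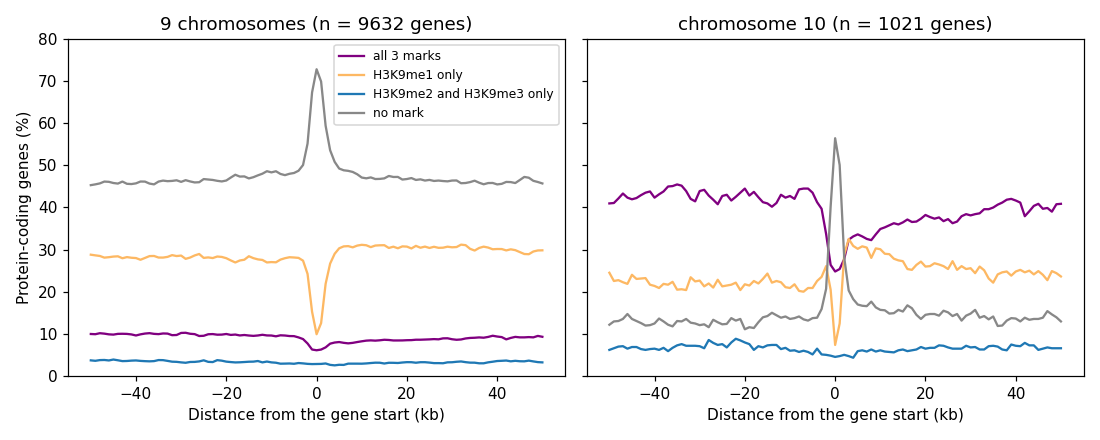
Percent of protein-coding genes whose position at a given distance (kb) from the gene start, negative upstream, lay in each of 4 of the 8 sets of marks, for the 9 chromosomes (left) and chromosome 10 (right). At the start the triple-marked share on chromosome 10 drops to 24.8% while the unmarked share peaks at 56.4%.

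CpG-rich promoters, defined here as at least 50% GC and a CpG observed over expected ratio of at least 0.6 within 500 bases either side of the start, were uncommon inside the segments. Of the 586 protein-coding starts in segments, 68 were CpG-rich (11.6%, 95% Wilson interval 9.26 to 14.5), against 4263 of 7011 starts under no mark (60.8%, 59.7 to 61.9). The share in segments was the lower one on 9 of 9 chromosomes, for example 6.72% against 75.9% on chromosome 10, 19.01% against 74.9% on chromosome 15 and 12.1% against 73.0% on chromosome 8. Among starts with other sets of marks the share was 8.39% for H3K9me1 only, 5.38% for H3K9me1 with H3K9me2, 21.0% for H3K9me2 with H3K9me3 and 36.0% for H3K9me3 only. Genes that started in a segment had a median length of 12.1 kb, and genes with an unmarked start had a median of 18.4 kb. The shorter length was not particular to triple-marked starts. The median was 10.99 kb for H3K9me1 only, 10.6 kb for H3K9me2 only and 11.9 kb for H3K9me1 with H3K9me2. It was 9.59 kb for H3K9me1 with H3K9me3, 20.2 kb for H3K9me2 with H3K9me3 and 26.6 kb for H3K9me3 only.

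A triple-marked segment touched 1707 protein-coding genes (17.7%), filled at least 50% of the body of 717, of which 247 had their start outside, and enclosed 235 completely (2.44%). Of these 235, 125 lay on chromosome 10, 60 on chromosome 15 and 26 on chromosome 8, their median length was 5.21 kb, and 17 had a CpG-rich promoter. The longest enclosed gene was Edar (74.9 kb), followed by Nox3, an NADPH oxidase of the inner ear (61.0 kb), Rdh16 (45.4 kb), Slc5a4a, a sodium-coupled sugar transporter family member (41.8 kb), and Map3k21, a kinase (37.0 kb). Mgat4d, Rdh16f1, Slc45a2, a melanosome transporter, Vmn2r83 and Cyp2d9 completed the 10 longest, down to 23.4 kb. Rdh1, Rdh9 and Rdh16f1 are overlapping gene models, so the same bases count for more than 1 of them.

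Genes were also ranked by the number of triple-marked bases in their body, which favours long genes. Most of the top genes started outside a segment, as did most protein-coding genes, of which 6.08% started inside. Anks1b, a scaffold protein of neuronal synapses, had 712 kb (64.7% of the body) and no mark at its start. The catenin gene Ctnna3 had 534 kb (33.9%) and the estrogen receptor gene Esr1 had 294 kb (74.6%), both again with an unmarked start. Pcdh15, a protocadherin of hair cells, had 394 kb (25.4%) and a start under H3K9me2 and H3K9me3 only. Zfhx3, a homeobox transcription factor gene, had 313 kb (30.7%) and a start under H3K9me3 only. Trappc9 had 307 kb (65.2%) with an unmarked start. Ano4 with 343 kb (86.5%) and Hydin with 307 kb (89.4%) were the exceptions, with starts inside a segment. The gene model Gm20388 also ranked among the 10 genes with the most triple-marked sequence, with 650 kb, but it spans 4435 kb of chromosome 8 across many other genes and is uncertain.

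**Figure D4:**
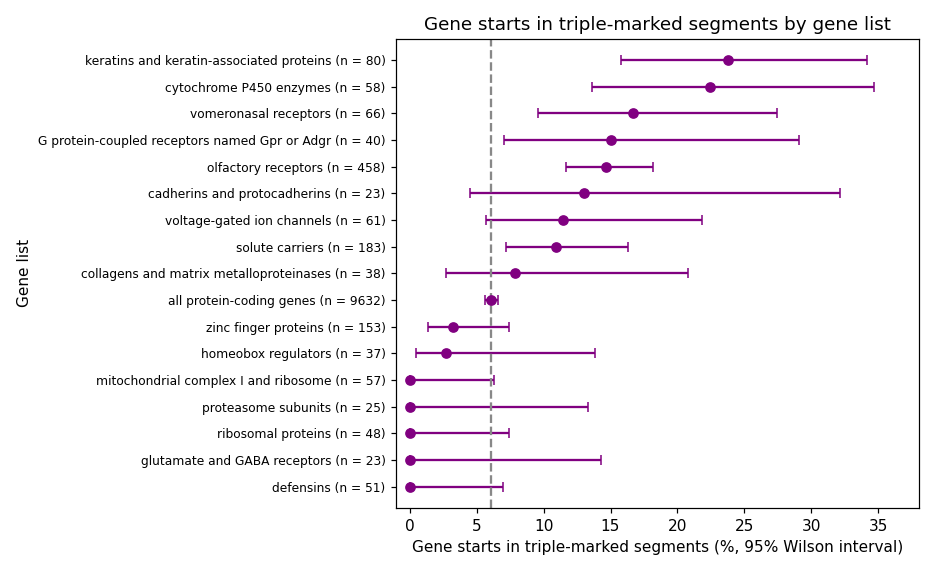
Percent of protein-coding gene starts inside triple-marked segments for each gene list with at least 20 members on the 9 chromosomes, with 95% Wilson intervals. The dashed line is the share over all 9632 protein-coding genes (6.08%), and the keratin, cytochrome P450, vomeronasal, Gpr or Adgr, olfactory receptor and solute carrier lists have intervals above it.

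Clustered gene families of other tissues are described by chromosome, since the share of all protein-coding starts in segments differed between chromosomes. Of 458 olfactory receptor genes, which encode the odorant receptors of sensory neurons, 67 started in a segment (14.6%), against 6.08% of all protein-coding genes. On chromosome 10 it was 54 of 70 (77.1%, 95% interval 66.0 to 85.4, against 24.8% of all protein-coding genes of that chromosome), on chromosome 15 it was 8 of 9 (against 18.1%) and on chromosome 8 it was 3 of 5 (against 8.75%). On the chromosomes with few segments the counts were near the shares of all protein-coding starts there. They were 0 of 132 on chromosome 9 (1.16% of all starts), 0 of 40 on chromosome 14 (1.55%), 0 of 53 on chromosome 17 (2.84%), 1 of 82 on chromosome 11 (0.244%) and 1 of 66 on chromosome 19 (2.09%). All 67 had CpG-poor promoters, with a median CpG observed over expected ratio of 0.115. Vomeronasal receptor genes, which encode pheromone receptors, had 8 of 8 starts inside on chromosome 10 (against 24.8% of all starts), 3 of 45 on chromosome 17 (6.67%, 2.29 to 17.9, against 2.84%) and 0 of 11 on chromosome 5 (against 1.83%).

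Keratin and keratin-associated genes, which encode the filaments of epithelia and hair, had 19 of 80 starts inside (23.8%). The keratin cluster on chromosome 15 had 16 of 26 (61.5%, 42.5 to 77.6, against 18.1% of all protein-coding genes there), among them Krt1, Krt5, Krt6a and Krt71. The cluster on chromosome 11 had 0 of 50, where 0.244% of all protein-coding starts were inside. Cytochrome P450 genes, mostly monooxygenases of liver and steroid metabolism, had 13 of 58 (22.4%). On chromosome 15 it was 9 of 10 (against 18.1% of all starts), including Cyp11b1, Cyp11b2 and 7 Cyp2d genes, on chromosome 5 it was 3 of 11 (27.3%, 9.75 to 56.6, against 1.83%), namely Cyp3a16, Cyp3a41b and Cyp3a44. On chromosomes 17 and 19 it was 0 of 11 and 0 of 18, near the 2.84% and 2.09% of all starts there. Members of the olfactory, vomeronasal, Cyp2d and Cyp3a families are close copies of each other, so reads may have been split between them.

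Genes of defensins, small antimicrobial peptides, had no start inside on a chromosome rich in segments. None of their 46 starts on chromosome 8 was in a segment, where 8.75% of all protein-coding starts were (95% interval of the defensin share 0 to 7.71), and 6 of the 46 were unmarked, so the others carried at least 1 mark. The defensin interval covers counting error only, and neighbouring genes are not independent counts. Zinc finger protein genes had 5 of 153 starts inside (3.27%), namely Zfp286, Zfp612, Zfp641, Zfp709 and Zfp791, with an interval of 1.40 to 7.42 that holds the 6.08% of all protein-coding genes. Of the 153 starts, 90.2% had no mark, against 72.8% of all protein-coding starts.

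Smaller numbers of transporter, channel and adhesion genes started in segments. Solute carriers, the membrane transporters, had 20 of 183 starts inside (10.9%, 7.19 to 16.3, against 6.08% of all protein-coding starts). On chromosome 10 it was 7 of 23 (30.4%, 15.6 to 50.9), near the 24.8% of all starts there. On chromosome 17 it was 3 of 18 (16.7%, 5.84 to 39.2, against 2.84% of all starts). On chromosome 19 it was 3 of 19 (15.8%, 5.52 to 37.6, against 2.09%). On chromosomes 8, 14 and 15 it was 1 of 21, 1 of 11 and 5 of 17 (against 8.75%, 1.55% and 18.1%). On chromosomes 5, 9 and 11 it was 0 of 21, 0 of 19 and 0 of 34. The neighbouring organic cation transporter genes Slc22a2 and Slc22a3 on chromosome 17 were among the 20, and their bodies were 98.3% and 96.6% triple-marked. Both are also on the list of imprinted genes, of which 3 of 13 started in a segment (8.18 to 50.3%, against 6.08% of all protein-coding starts). The other was Plagl1, a zinc finger gene of growth control (85.3% of the body), on chromosome 10, where 24.8% of all starts were inside. Voltage-gated ion channels had 7 of 61 (11.5%, 5.67 to 21.8), with Kcnq3 (71.5% of the body), Scn8a (80.8%) and the sensory neuron channels Scn10a (32.3%) and Scn11a (26.4%). Ion channel starts inside were 2 of 10 on chromosome 9 (against 1.16% of all starts), 3 of 10 on chromosome 15 (18.1%) and 0 of 14 on chromosome 11 (0.244%). On chromosomes 8, 14 and 19 they were 1 of 5, 0 of 6 and 1 of 5 (against 8.75%, 1.55% and 2.09%). G protein-coupled receptors named Gpr or Adgr had 6 of 40 (15%, 7.06 to 29.1). Of these receptors, 2 of 6 started inside on chromosome 5 (against 1.83% of all starts) and 1 of 8 on chromosome 17 (2.84%). On chromosomes 8 and 14 it was 0 of 6 and 0 of 5 (against 8.75% and 1.55%). The remaining 3 of these 6 receptor starts lay on chromosome 10, where 24.8% of all starts were inside. Cadherins and protocadherins had 3 of 23 (Cdh1, Cdh5 and Cdh23, 4.54 to 32.1%) and collagens and matrix metalloproteinases 3 of 38 (Col13a1, Col22a1 and Col6a4, 2.72 to 20.8%), and these intervals, like that of the ion channels, hold the 6.08% of all protein-coding starts. Among Wnt ligands and receptors 1 of 15 started in a segment (Wnt8b, 6.67%), close to the share of all genes, and among germline genes 1 of 8 (Dnmt3l, a cofactor of DNA methylation in germ cells). The interval of the germline list, 2.24 to 47.1%, holds the 6.08% of all protein-coding starts.

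Several lists had no start in a segment. This held for 48 ribosomal protein genes, 25 proteasome subunit genes, 57 genes of mitochondrial complex I and the mitochondrial ribosome, 4 genes of H3K9 methyltransferases and HP1 proteins, and 4 fibroblast markers on these chromosomes (Col1a1, Dcn, Lum and Thy1). None of 12 interferon response genes or 23 glutamate and GABA receptor genes started in a segment either. With 0 of 48, the 95% interval for ribosomal protein genes reached 7.41%, so these lists cannot be told from the 6.08% of all protein-coding genes by their number alone. The gene body of the fibroblast proteoglycan gene Dcn was 38.9% triple-marked with an unmarked start.

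Base composition and annotation were not used to choose the segments, so they were compared within each of the 9 chromosomes with sequence under H3K9me2 and H3K9me3 only, under H3K9me1 and H3K9me2 only, and under no mark. All stretches were at least 1500 bp wide. The 15 mean differences were tested with an exact two-sided sign-flip permutation test over chromosomes and adjusted by Benjamini-Hochberg, and 8 passed 0.05. Chromosomes are positions in 1 set of maps and not replicates of the experiment, and the smallest p of this test is 0.0039.

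Triple-marked segments were richer in GC than unmarked sequence and lay between the 2 compared sets with 2 marks. Their mean GC share over chromosomes was 44.6%, against 40.6% under no mark, a difference of 3.92 ± 0.99 percentage points (SD, n = 9 chromosomes, higher on 9 of 9, exact permutation adjusted p = 0.0234). The difference from sequence with H3K9me1 and H3K9me2 only (45.6%) was -1.10 ± 0.68 points (lower on 8 of 9, exact permutation adjusted p = 0.0234) and that from sequence with H3K9me2 and H3K9me3 only (43.5%) was 1.04 ± 1.06 points (higher on 8 of 9, exact permutation adjusted p = 0.0439). That last difference passed in 1 of 9 repeats with a chromosome left out. The CpG observed over expected ratio was 0.197 in segments, and none of its 3 differences passed (0.192, 0.192 and 0.201 in the comparison sets, exact permutation adjusted p = 0.268, 0.137 and 0.488). Sequence with H3K9me1 and H3K9me3 only (2288 segments) was not tested. Pooled over the 9 chromosomes, its GC share was 44.8% against 43.5% in triple-marked segments. Its CpG observed over expected ratio was 0.241 against 0.196.

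Repeat content in the segments also lay between that of the 2 compared sets with 2 marks. The soft-masked share was 29.2% in triple-marked segments, 33.7% in sequence with H3K9me2 and H3K9me3 only, 24.3% in sequence with H3K9me1 and H3K9me2 only and 34.1% under no mark. The difference was -4.47 ± 3.51 points from the first of these sets (lower on 8 of 9 chromosomes), 4.93 ± 2.09 points from the second (higher on 9 of 9) and -4.94 ± 3.22 points from unmarked sequence (lower on 8 of 9), each with an exact permutation adjusted p of 0.0234. In segments of at least 5.25 kb the first of these did not pass (-2.76 points, exact permutation adjusted p = 0.152). Sequence with H3K9me1 and H3K9me3 only, which was not tested, was 30.5% soft-masked when pooled over the 9 chromosomes. The pooled share in triple-marked segments was 30.1%.

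Triple-marked segments held more gene starts and more gene body than sequence with H3K9me2 and H3K9me3 only. Starts of all annotated genes numbered 20.5 per Mb against 16.95 per Mb, a difference of 3.54 ± 3.50 (8 of 9 chromosomes, exact permutation adjusted p = 0.0419). Bodies of protein-coding genes made up 43.2% against 36.0% of the sequence, a difference of 7.18 ± 5.85 points (7 of 9, exact permutation adjusted p = 0.0391). The first passed in 2 of 9 and the second in 3 of 9 repeats with a chromosome left out. The first did not pass with protein-coding starts only (2.59 per Mb, exact permutation adjusted p = 0.0586), nor the second in segments of at least 5.25 kb (7.69 points, exact permutation adjusted p = 0.0781). Against sequence with H3K9me1 and H3K9me2 only (24.5 starts per Mb, 45.4% gene body) and under no mark (27.5 starts per Mb, 39.8% gene body) none of the 4 differences passed, with exact permutation adjusted p from 0.0527 to 0.268.

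All 4 differences from sequence with H3K9me2 and H3K9me3 only that passed were larger on the chromosomes with the most segments. Their means on chromosomes 8, 10 and 15 and on the other 6 chromosomes were 2.26 and 0.428 points for GC, -8.27 and -2.57 points for soft-masked share, 6.37 and 2.13 for gene starts per Mb, and 12.1 and 4.69 points for gene bodies. The difference between these groups of chromosomes was not tested.

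**Figure D5:**
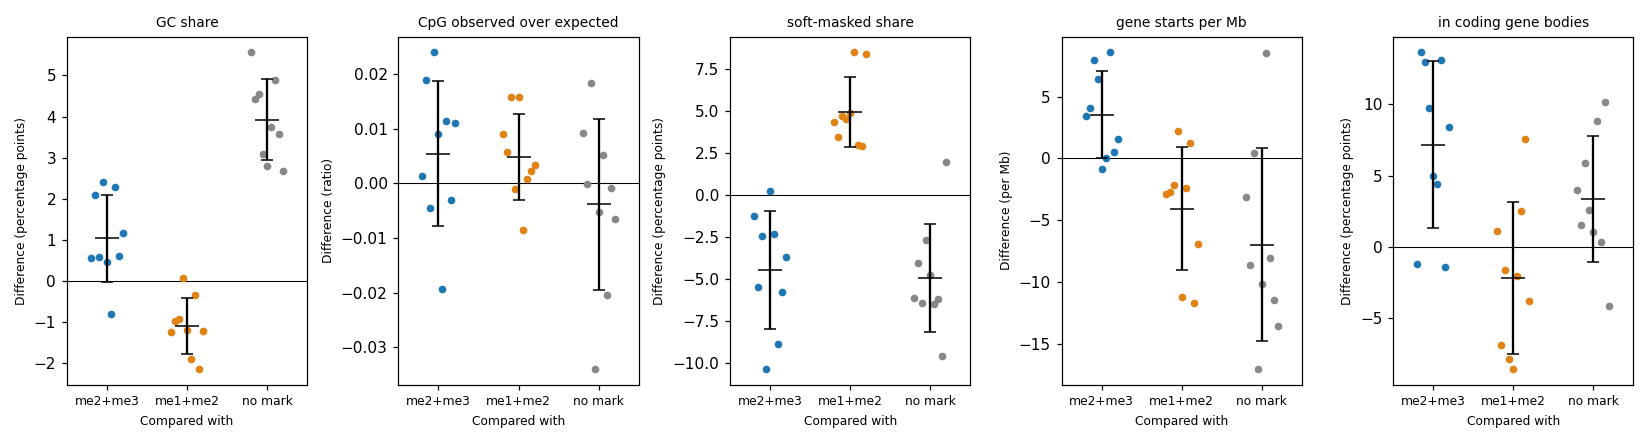
Difference of triple-marked segments from 3 comparison sets in 5 measures, with 1 point per chromosome (n = 9), the mean as a horizontal line and the SD as the error bar. Units are percentage points, ratio or starts per Mb, me2+me3 stands for H3K9me2 and H3K9me3 only, me1+me2 for H3K9me1 and H3K9me2 only, and GC share is above no mark on 9 of 9 chromosomes.

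The genes that the study examined one by one lay mostly outside the segments. None of the 14 on these chromosomes had its 5′ end in a segment, where 6.08% of all protein-coding genes had theirs. Cacna1i alone of the 14 had triple-marked sequence in its body. The study showed several of these genes as examples of a single methylation state, so the count says nothing about how common triple-marked starts are. Of the 111 kb of Cacna1i, 91.9% was under H3K9me1, 72.1% under H3K9me2 and 20.1% under H3K9me3, and 21.5 kb (19.4%) was triple-marked. Tcap, a sarcomere protein gene, was covered by H3K9me1 throughout and by no other mark. Defb40 and Treml4 had H3K9me2 only at the start, Nkx6-1 had H3K9me3 only, and Pou5f1 and Cdkn1a had H3K9me1 only. Olfr1431, Bbs9, Cdk1, Tlr3, Actb, Setdb2 and Ehmt2 had no mark at the start. The start was read here as the single base of the 5′ end, and the study scored peaks in a wider window around it. By that window the study gives Bbs9 as positive for H3K9me1 and Olfr1431 as positive for H3K9me2. In the gene bodies, H3K9me1 covered 46.5% of Bbs9 and H3K9me2 covered 77.9% of Olfr1431.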

How the data were processed

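ChIP-seq for H3K9me1, H3K9me2 and H3K9me3 and input sequencing were done by the authors in wild-type MEFs. Reads were mapped by the authors to mm10 (GRCm38) with BWA 0.7.1, regions were called with histoneHMM, and the authors deposited 1 list of region positions per mark. How replicates and input entered the call, and the threshold used, are not given in the sources used here. Starts and ends lie on a grid of 750 bp read as 1-based and inclusive. Genes were GENCODE M21, promoter sequences RefSeq GRCm38.p6, and masking that of the GRCm38.p6 sequence. Runs of equal mark sets and all measures were computed with Python 3.11.15, NumPy 2.4.6 and SciPy 1.17.1, and drawn with Matplotlib 3.10.9. The segmentation and the exact sign-flip test were tested on simulated data. Shares have Wilson 95% intervals, which cover counting error only. Named were the 10 widest segments with their genes, the 10 genes with the most triple-marked sequence, the 10 longest enclosed genes, list members starting in a segment, the genes examined by the study, and the 5 fullest windows. Large lists are given by examples, and a few genes that the rule named are not reported here. The segments, gene lists and tests were chosen with earlier results of these data known. Input samples have no list that was used here.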

Additional observations from a re-analysis of the deposited data

How the results depend on the processing

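The limits come first. Each mark has 1 list, so replicate error, depth and call strength are unknown, and widths and counts depend on the calling threshold of the study. No paired analysis was possible because replicates carry no positions of their own, and leaving out a replicate or fitting a replicate block was not run. The edge results for H3K9me1 alone were added after seeing the data. Of 233 recomputed values, 163 kept the call (tests), lay within 1.5 times the main value (number of segments) or lay within the 95% interval of the main value (shares, length and median width). Of these 163, 151 came from the 189 composition tests, where a difference that failed in both settings also counts as kept. The counts, lengths, widths and shares were less stable, and 32 of them lay outside these limits. The number of segments fell to 5540 with a minimum of 5.25 kb and to 6422 with regions of at least 5 kb. The length, 93.9 Mb, was 95.4, 86.5 and 73.6 Mb with minimum widths of 0.75, 3 and 5.25 kb, 76.5 Mb with regions of at least 5 kb, 95.6 Mb with regions up to 750 bp apart joined, 90.6 Mb with starts read as 0-based and 96.5 Mb on all main chromosomes. The median width of 3.75 kb became 6 and 9 kb with minimum widths of 3 and 5.25 kb, 8.25 kb with regions of at least 5 kb and 5.25 kb with 0-based starts. The share of the marked length, 19.3%, was 19.7% and 15.2% with minimum widths of 0.75 and 5.25 kb, 18.0% with regions of at least 5 kb, 19.5% with joining and 17.3% on all main chromosomes. Of protein-coding starts, 6.08% became 5.06% at 5.25 kb, 5.21% with regions of at least 5 kb, 2.82% on all main chromosomes and 8.76% with any annotated transcript start. Segments holding a gene start, 10.6%, became 9.44% and 18.9% at 0.75 and 5.25 kb, 17.1% with regions of at least 5 kb, 11.2% with joining and 3.79% for protein-coding genes only. Edges at which 1 mark ended, 80.4%, became 73.3% when a mark had to cover at least 50% of the next 1500 bp, 82.6% with joining and 78% at 5.25 kb, and those at which H3K9me1 alone ended, 43.2%, became 38.7% and 40.0% under the first and the last of these.

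Among the composition differences, the CpG observed over expected ratio against H3K9me1 with H3K9me2 changed sign from 0.00477 to -0.000885 at 5.25 kb, -0.000248 with regions of at least 5 kb and -0.000394 in bases that are not soft-masked. It did not pass the threshold in any of these. On bases that are not soft-masked its differences from H3K9me2 with H3K9me3 (0.0118, exact permutation adjusted p = 0.0391) and from no mark (-0.0160, exact permutation adjusted p = 0.0410) passed. Against H3K9me2 with H3K9me3, the GC difference did not pass at 5.25 kb (0.904) or with regions of at least 5 kb (1.02), the soft-masked difference did not pass at 5.25 kb (-2.76), nor did gene bodies at 5.25 kb (7.69) and protein-coding starts (2.59 per Mb). Gene starts per Mb passed with joining against H3K9me1 with H3K9me2 (-4.17) and no mark (-7.18), and with protein-coding starts against no mark (-8.04). The causes were not tested. With each chromosome left out, 5 differences stayed past the threshold in 9 of 9 repeats, namely GC against H3K9me1 with H3K9me2 (-1.24 to -0.966) and no mark (3.72 to 4.08), and soft-masked share against H3K9me2 with H3K9me3 (-5.06 to -3.73), H3K9me1 with H3K9me2 (4.49 to 5.19) and no mark (-5.80 to -4.36). The others changed side in at least 1 repeat or never passed. They ranged over 0.866 to 1.27 for GC, 2.92 to 4.09 for starts per Mb and 6.37 to 8.25 for gene bodies, all against H3K9me2 with H3K9me3, over -4.83 to -3.09 for starts and -3.38 to -1.37 for gene bodies against H3K9me1 with H3K9me2, and over -8.93 to -5.73 for starts and 2.52 to 4.31 for gene bodies against no mark. For the CpG ratio the ranges were 0.00307 to 0.00847, 0.00341 to 0.00643 and -0.00659 to -5.66e-05 against the 3 sets. With 8 chromosomes the test has fewer sign flips, so its smallest p is larger.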

Other observations

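The 12 main chromosomes outside the set of 9 held 294 triple-marked segments of at least 1500 bp and 2.53 Mb, although they carried 10.9% of the H3K9me1, 4.54% of the H3K9me2 and 12.2% of the H3K9me3 length of all main chromosomes. The widest 2 were neighbours on chromosome 3, at 106187251 to 106263750 (76.5 kb) over Chil4 and at 106122751 to 106185750 (63.0 kb) over Chia1 and Chil3, members of the chitinase and chitinase-like family. Next came a 59.3 kb segment over the zinc finger gene Zfp936 on chromosome 7, a 57.0 kb segment over Zfp984 on chromosome 4 and a 50.3 kb segment over the prolactin family gene Prl2c3 on chromosome 13. Zfp936 is a gene that the study gives as an example of an H3K9me3-positive promoter, but its 5′ end lay outside the triple-marked segments.

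Only 33 of 12306 protein-coding genes on these 12 chromosomes started in such a segment. They included Zfp600, Zfp980, Zfp982, Zfp984, Zfp985, Zfp986 and Zfp989, which are neighbouring members of a zinc finger gene cluster on chromosome 4, the olfactory receptor genes Olfr142, Olfr1271 and Olfr1272 on chromosome 2, the odorant-binding protein gene Obp2b and the lipocalin gene Lcn4. The number of zinc finger protein genes on these 12 chromosomes was not counted. No share can therefore be set beside the 5 of 153 zinc finger protein genes that started in a segment on the 9 chromosomes.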
